A study of Mus musculus with 16 samples.

Results

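Btg2, Ier2, Ier3, Ier5, Dusp1, Dusp6, Klf2, Klf4, Klf6 and Zfp36 are early response regulators outside the Egr, Nr4a and AP-1 families of transcription factors. They were taken by annotated gene symbol, and each of the 10 symbols stood on 1 of the 22206 gene probesets of the array. RNA came from cells of the olfactory mucosa of S100a5-tauGFP mice, in which a green fluorescent protein (GFP) fused to tau reports the S100a5 gene of olfactory sensory neurons, and the cells were sorted into GFP+ and GFP- fractions. The 24 mice, of both sexes and 7 to 12 weeks old, spent 40 h singly in clean air chambers (3.1 L/min), and from 26 h on they received 10 s pulses every 20 min of odorant or of filtered air (vehicle). There were 16 Clariom S arrays in 4 groups of 4, GFP+ and GFP- cells with vehicle and GFP+ and GFP- cells with odorant, and each array held RNA of cells pooled from 3 mice. The sample labels name bourgeonal as the stimulus and the series title names indole, so it is called the odorant here. All groups carried the reporter, so GFP- cells are the unlabelled cells of the same mucosa, whatever their type, and not a control genotype. As 24 mice in threes give 8 pools for 16 arrays, each pool supplied both a GFP+ and a GFP- array, which carry the same treatment and replicate number.

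Early response genes are transcribed within minutes of a stimulus from transcription factors that are already in the cell, among them CREB, which binds the cAMP response element (CRE), and serum response factor, which binds the CArG box. Many of their products then damp the response: DUSP phosphatases switch off MAP kinases, ZFP36 speeds the decay of AU-rich mRNAs, and BTG2 recruits deadenylases and slows the cell cycle. In olfactory sensory neurons odor raises cAMP and calcium, and both second messengers can reach such genes. The same genes are also active in many other cells, including white blood cells and dividing progenitors.

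The stretch upstream of the start site was available for 9 of the 10 genes (RefSeq, GRCm38.p6), not for Ier2. The 250 bases before the start are shown for 4 genes, because they set genes with wide gaps between the fractions beside genes with small ones. Btg2 and Zfp36 were far lower in GFP+ cells, whereas Dusp1 and Ier5 did not pass the test. Capitals mark the CRE (TGACGTCA), its half-site (TGACG, on either strand, and part of the whole CRE), the CArG box and the TATA box (TATANA, either strand).
Btg2, chr1:134079156-134079405, minus strand: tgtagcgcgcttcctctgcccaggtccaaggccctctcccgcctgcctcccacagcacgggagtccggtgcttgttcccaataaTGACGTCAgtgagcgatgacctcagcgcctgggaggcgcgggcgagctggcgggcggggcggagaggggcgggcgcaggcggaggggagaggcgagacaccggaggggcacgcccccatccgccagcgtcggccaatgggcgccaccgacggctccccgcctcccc
Zfp36, chr7:28379229-28379478, minus strand: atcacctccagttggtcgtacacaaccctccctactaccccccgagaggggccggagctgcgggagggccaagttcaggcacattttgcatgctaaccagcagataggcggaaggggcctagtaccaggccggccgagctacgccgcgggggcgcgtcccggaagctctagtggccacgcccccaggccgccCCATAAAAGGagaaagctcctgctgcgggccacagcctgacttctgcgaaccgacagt
Dusp1, chr17:26508473-26508722, minus strand: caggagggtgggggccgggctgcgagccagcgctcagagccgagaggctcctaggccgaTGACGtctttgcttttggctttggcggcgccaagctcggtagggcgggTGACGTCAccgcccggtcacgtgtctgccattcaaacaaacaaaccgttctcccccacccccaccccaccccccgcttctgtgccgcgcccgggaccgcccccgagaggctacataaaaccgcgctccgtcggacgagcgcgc
Ier5, chr1:155099637-155099886, minus strand: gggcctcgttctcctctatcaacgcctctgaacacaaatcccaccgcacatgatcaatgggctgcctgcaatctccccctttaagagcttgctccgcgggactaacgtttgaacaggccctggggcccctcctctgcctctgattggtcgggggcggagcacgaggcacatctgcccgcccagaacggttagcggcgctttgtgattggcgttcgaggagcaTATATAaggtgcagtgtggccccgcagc

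Btg2 and Dusp1 each held 1 whole CRE, which began 166 and 143 bases before the start, and Dusp1 also held a separate half-site at 191 bases. A whole CRE occurred in 1.55% of the 32851 upstream stretches of the same length in the RefSeq table, and a half-site in 17.8%. The CArG box of Zfp36 began 58 bases before the start, and 1.47% of all stretches held one. Ier5 held neither element, and its TATA box lay at 28 bases (22.6% of all stretches). Half-sites were also present in Klf2 and Klf4, and TATA boxes in Ier3 and Klf2. The GC box (GGGCGG), searched on both strands, was found in 8 of the 9 genes against 32.7% of all stretches, and the CCAAT box (CCAAT) in 5 against 33.8%. No AP-1 site (TGANTCA, 6.75% of all stretches) and no NF-kB site (5% of all stretches) was found in these windows. The whole CRE was thus present upstream of 1 gene that differed strongly between the fractions and of 1 that did not pass the test.

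Array values are log2 probeset signals, so 1 unit is a doubling, and they allow a gene to be compared between groups but not with another gene. An array's background level was the 95th percentile of its 23 antigenomic control probesets, which have no target in the mouse, and lay between 6.57 and 6.87. A gene was called at background in a group where it exceeded that level on none of the 4 arrays. Btg2, Ier2, Ier5, Dusp1, Klf6 and Zfp36 exceeded it on all 16 arrays, Ier3 on 12, Dusp6 on 9, Klf4 on 8 and Klf2 on 5. Arrays of 1 group correlated across genes with r of 0.987 to 0.994. Mature neuron markers were near the top of the scale in both fractions, with summed log2 signals of 21.10 to 21.15 in GFP+ and 20.93 to 21.02 in GFP- cells, so both fractions held RNA of mature neurons. S100a5 itself was 1.91-fold higher in GFP+ than in GFP- cells with vehicle and 2.21-fold with odorant (limma adjusted p = 0.00236 and 0.00247). The median of an array's gene probesets was 6.29 to 6.38 in GFP+ and 6.64 to 6.76 in GFP- cells, so subtracting array medians moves every difference between the fractions upward.

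**Figure D1:**
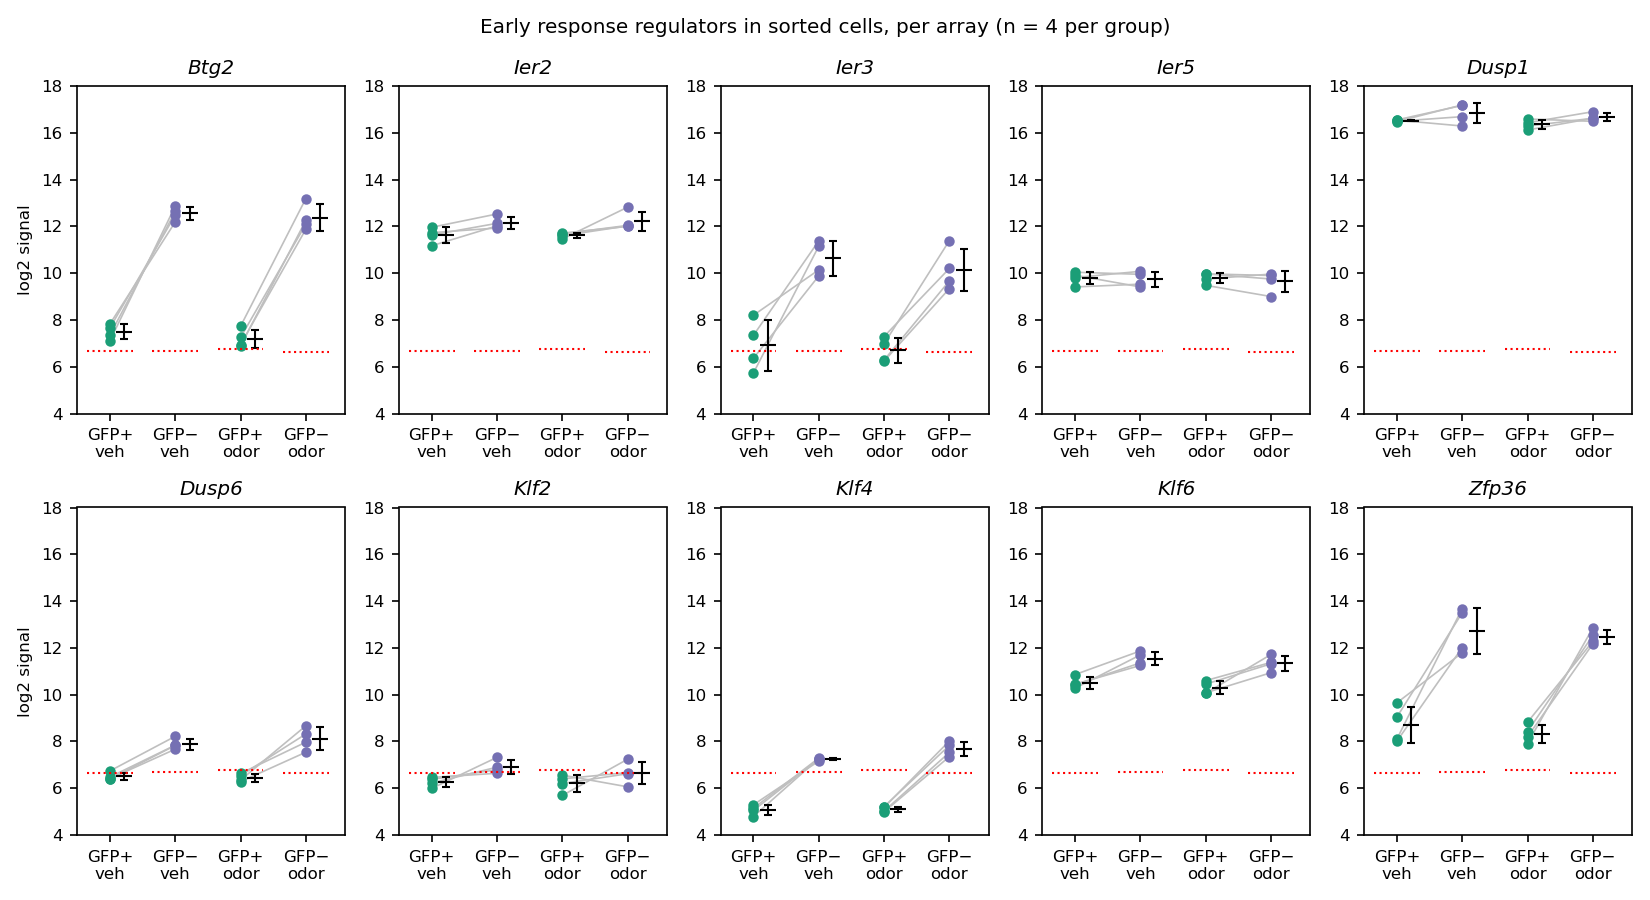
Log2 signal (y axis) of the 10 genes in the 4 groups (x axis; veh, vehicle; odor, odorant). Points are arrays, grey lines join the 2 fractions of a pool, black bars give the mean and SD of 4 arrays, and red dotted lines the mean background level of the group. Btg2, Ier3 and Zfp36 climbed steeply from GFP+ to GFP- in every pool, whereas Ier5 and Dusp1 stayed nearly level.

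The first comparison set the fractions of vehicle mice against each other. Here 7 of the 10 genes were lower in GFP+ than in GFP- cells and 0 were higher (limma, adjusted p under 0.05 over all 22206 gene probesets). Of all gene probesets 9.97% were called lower and 7.76% higher. The median difference (GFP+ minus GFP-) of the 10 genes was -1.21 log2 units, against 0.082 over all gene probesets. Btg2, Ier3, Dusp6, Klf2, Klf4, Klf6 and Zfp36 were the 7, and their GFP+ and GFP- arrays did not overlap, which held for 11% of all gene probesets in this direction. A filter on dim probesets (above background on 4 or more of the 8 arrays) left 9 of the 10 genes, removing Klf2, and Klf4, Dusp6 and Ier3 passed it only through their GFP- arrays.

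Btg2, an antiproliferative protein that rises as progenitors turn into neurons, differed widely between the fractions. Its log2 signal was 7.66, 7.11, 7.36 and 7.83 in GFP+ cells (replicates 1 to 4 with vehicle) and 12.49, 12.87, 12.64 and 12.19 in GFP- cells. Every GFP+ array lay slightly over background and every GFP- array far above it. The means were 7.49 ± 0.32 and 12.55 ± 0.28 (SD, n = 4), a 33.2-fold lower signal in GFP+ cells (difference -5.05, SE 0.20, limma adjusted p = 1.04e-07, lower in 4 of 4 pools). With odorant the same gene was at 7.73, 6.89, 6.95 and 7.25 in GFP+ and at 13.19, 12.26, 11.88 and 12.10 in GFP- cells. That was 35.6-fold lower (difference -5.15, SE 0.29, limma adjusted p = 5.98e-07). Across the 8 pools the difference within a pool ran from -5.76 to -4.36.

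Zfp36, also known as tristetraprolin, was low in GFP+ cells as well. In GFP+ cells with vehicle it was at 8.01, 9.04, 8.10 and 9.65, and in GFP- cells at 12.01, 13.50, 13.68 and 11.79. Both fractions were uneven, with GFP+ replicates 2 and 4 and GFP- replicates 2 and 3 high, yet the fractions stayed well apart. The gap was 16.5-fold (difference -4.04, SE 0.49, limma adjusted p = 0.000226). It was -3.53 without vehicle replicate 3 and -4.68 without vehicle replicate 4. With odorant Zfp36 was at 8.42, 7.91, 8.20 and 8.82 in GFP+ and at 12.53, 12.85, 12.17 and 12.28 in GFP- cells. These arrays were tighter, and the difference was -4.12 (SE 0.22, 17.4-fold, limma adjusted p = 4.56e-07).

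Ier3, a stress-inducible protein that modulates ERK signalling and cell survival, stood at 6.36, 7.34, 5.73 and 8.20 in GFP+ and at 9.88, 11.38, 11.15 and 10.14 in GFP- cells with vehicle. Only 2 of the 4 GFP+ arrays exceeded background, and all GFP- arrays did. Its signal was 13.2-fold lower in GFP+ cells (difference -3.73, SE 0.51, limma adjusted p = 0.000524). The difference was -3.16 without vehicle replicate 3 and -4.32 without vehicle replicate 4, the pool with the highest GFP+ array. With odorant the values were 6.98, 6.24, 6.28 and 7.29 against 11.39, 9.34, 9.67 and 10.20. The GFP+ mean was then under the background level, so the signal was at least 9.32-fold lower (difference -3.46, SE 0.41, limma adjusted p = 0.000158). Among the 10 genes Ier3 also varied widely between GFP+ arrays of 1 group, with an SD of 1.09 with vehicle.

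Ier2 and Ier5, which are related to each other and share only a name with Ier3, showed much smaller gaps. Ier2 with vehicle was at 11.73, 11.96, 11.17 and 11.63 in GFP+ and at 11.93, 12.53, 12.02 and 12.13 in GFP- cells. The ranges overlapped slightly, and the difference of -0.53 (SE 0.20, 95% interval -0.97 to -0.091) did not pass (limma adjusted p = 0.0953). With odorant Ier2 was at 11.46 to 11.71 in GFP+ and 12.00 to 12.82 in GFP- cells. Those ranges did not overlap, but the difference of -0.60 (SE 0.20) did not pass either (limma adjusted p = 0.0839). Ier2 was lower in GFP+ cells in 8 of 8 pools. With array medians subtracted its differences were -0.17 and -0.29.

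Ier5 was at 9.91, 10.04, 9.41 and 9.81 in GFP+ and at 9.41, 9.95, 9.53 and 10.08 in GFP- cells with vehicle. The fractions interleaved, with a difference of 0.052 (SE 0.20, 95% interval -0.39 to 0.49, limma adjusted p = 0.888). With odorant it was at 9.48 to 9.97 and at 9.0 to 9.96, a difference of 0.14 (95% interval -0.35 to 0.64, limma adjusted p = 0.765). Ier5 was lower in GFP+ cells in 3 of 8 pools. These intervals exclude gaps of the size seen for Ier3.

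Dusp1, the MAP kinase phosphatase MKP-1, carried a very high signal on every array. With vehicle it was at 16.49, 16.55, 16.48 and 16.54 in GFP+ cells, with an SD of only 0.034, and at 16.69, 17.17, 17.19 and 16.29 in GFP- cells. The GFP- arrays spread on both sides of the GFP+ arrays. The difference was -0.32 (SE 0.20, 95% interval -0.76 to 0.13, limma adjusted p = 0.32), and 0.046 with array medians subtracted, so its sign depends on the scaling. With odorant Dusp1 was at 16.12 to 16.59 and 16.49 to 16.90, with a difference of -0.30 (limma adjusted p = 0.304; 0.016 with array medians subtracted).

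Dusp6, the cytoplasmic phosphatase MKP-3 that acts on ERK, was dim. In vehicle mice its signal was 6.40, 6.41, 6.74 and 6.48 in GFP+ and 7.83, 7.67, 8.22 and 7.84 in GFP- cells. One of the 4 GFP+ arrays exceeded background and all GFP- arrays did, so GFP+ cells were lower by at least 2.29-fold (difference -1.38, SE 0.16, limma adjusted p = 0.000154). With odorant it was at 6.28 to 6.63 in GFP+ cells, at background throughout, and at 7.54 to 8.67 in GFP- cells. There it was at least 2.56-fold lower (difference -1.67, SE 0.23, limma adjusted p = 0.000427). Dusp6 thus passed the test in both treatments and Dusp1 in neither.

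The 3 Krüppel-like factors, zinc finger transcription factors of one family, all had lower means in GFP+ cells. Klf6, a broadly expressed member, was at 10.42, 10.28, 10.86 and 10.45 in GFP+ and at 11.36, 11.70, 11.87 and 11.25 in GFP- cells with vehicle. This was 2.06-fold lower (difference -1.04, SE 0.19, limma adjusted p = 0.00279). With odorant it was again 2.06-fold lower (10.06 to 10.60 against 10.94 to 11.72, difference -1.05, limma adjusted p = 0.00461).

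Klf4, known from epithelial differentiation and pluripotency, was at background on all 8 GFP+ arrays and above it on all 8 GFP- arrays. With vehicle it was at 5.05, 5.14, 5.29 and 4.79 in GFP+ and 7.25, 7.29, 7.16 and 7.27 in GFP- cells, at least 1.51-fold lower (difference -2.18, SE 0.14, limma adjusted p = 3.32e-06). With odorant it was at least 1.88-fold lower (difference -2.58, SE 0.17, limma adjusted p = 2.05e-06). The GFP- level of Klf4 was only modestly over background, and the bounds count only from the background level up.

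Klf2, a factor of resting lymphocytes and of endothelium, was at background on all 8 GFP+ arrays. In GFP- cells with vehicle it was at 6.79, 6.90, 7.32 and 6.64, above background on 3 of 4 arrays, against 6.38, 6.22, 5.99 and 6.46 in GFP+ cells. It passed narrowly (difference -0.65, SE 0.18, limma adjusted p = 0.0294, at least 1.20-fold lower). The call was lost with the pool as a block (adjusted p = 0.0711), with array medians subtracted (0.162), after quantile normalization (0.254), with all arrays in 1 fit (0.0631) and without vehicle replicates 1 (0.0791), 2 (0.128) or 3 (0.113, difference -0.43). With odorant Klf2 did not pass (difference -0.44, limma adjusted p = 0.367), and there its GFP- arrays (6.06 to 7.24) overlapped the GFP+ arrays (5.69 to 6.56).

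In mice given the odorant, 6 of the 10 genes were lower in GFP+ cells and 0 were higher, against 7.84% of all gene probesets called lower and 3.57% higher. The 6 were Btg2, Ier3, Dusp6, Klf4, Klf6 and Zfp36, and Klf2 did not pass here (its interaction, the difference between the 2 gaps, was 0.21 with a limma adjusted p of 0.969). The median difference was -1.36 log2 units for the 10 genes and 0.10 for all gene probesets. With Ier2, 7 of the 10 genes had GFP+ arrays wholly below the GFP- arrays, as did 9.07% of all gene probesets. The comparisons with vehicle and with odorant share no array. Within pools Btg2, Ier2, Ier3, Dusp6, Klf4, Klf6 and Zfp36 were lower in the GFP+ fraction in 8 of 8, Klf2 in 7 and Dusp1 in 6.

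**Figure D2:**
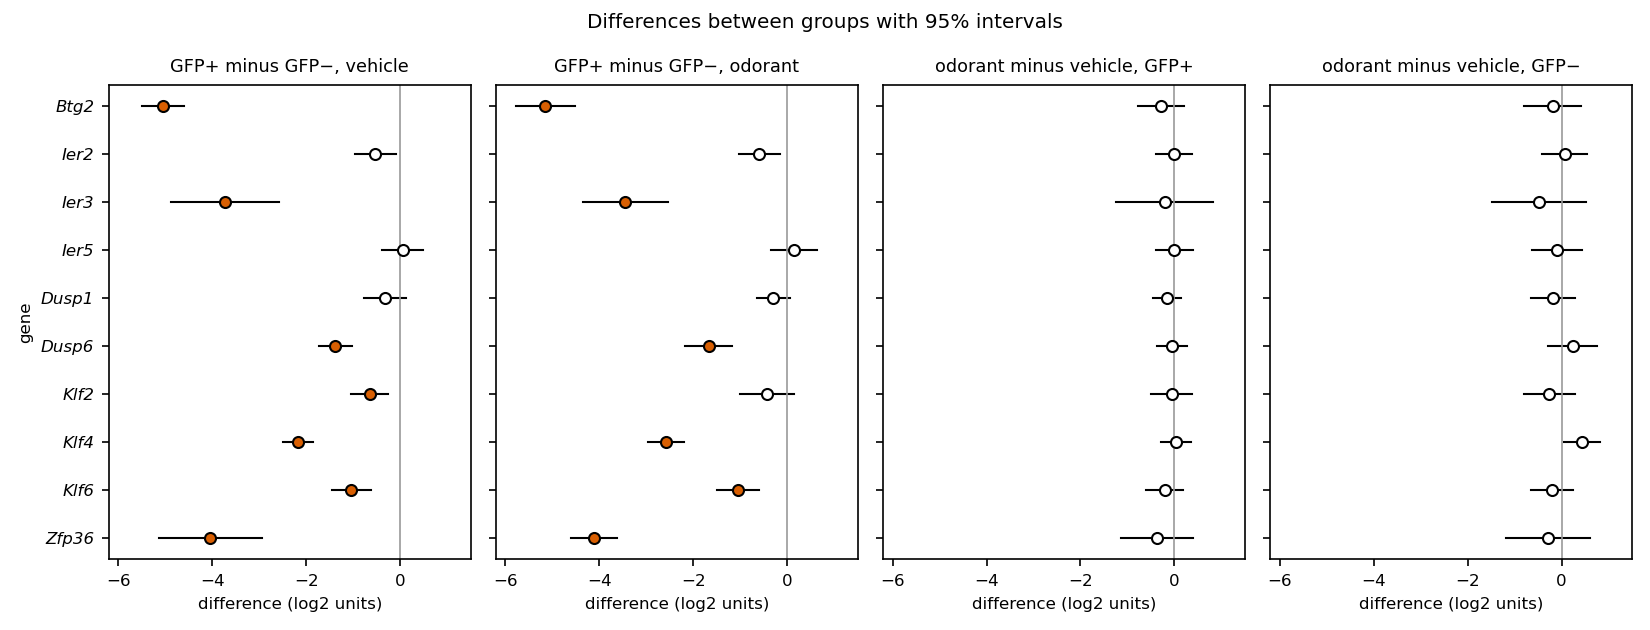
Difference in log2 signal (x axis) for each gene (y axis) in 4 comparisons, with its 95% interval; filled circles passed the adjusted threshold of 0.05. Filled circles lie in the 2 panels that compare the fractions, 7 with vehicle and 6 with odorant, and none in the panels that compare odorant with vehicle.

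The 4 group means were also ranked, although Ier2, Ier5 and Dusp1 passed between the fractions in neither treatment and Klf2 only with vehicle. For Btg2, Ier3, Dusp1, Klf2, Klf6 and Zfp36 the GFP- vehicle mean was highest, followed by GFP- odorant, GFP+ vehicle and GFP+ odorant. For Ier2, Dusp6 and Klf4 GFP- odorant was highest and GFP- vehicle second. Neighbouring groups of the same fraction did not pass the test for any of the 10 genes. For Ier5 all 4 means lay between 9.65 and 9.79, with SDs of 0.23 to 0.44.

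Markers of several other cell types moved with these genes. Their counts are to be read against all gene probesets, of which 9.97% were called lower and 7.76% higher with vehicle. In vehicle mice the summed log2 signal of the 6 leukocyte markers (6 of 6 lower in GFP+ cells) was 10.22 to 11.20 in GFP+ and 13.38 to 15.58 in GFP- cells. Among them, Ptprc (CD45) was at least 22.1-fold lower and at background on all 4 GFP+ arrays. Neutrophil markers (11 of 11 measured lower) ran from 8.65 to 10.71 and from 17.40 to 19.42, with 7 of the 11 at background in GFP+ cells. Macrophage markers (4 of 11 lower, 0 higher, median difference -0.24) ran from 9.81 to 11.19 and from 12.31 to 13.83. That sum leans on its brightest gene, Fcer1g (mean 12.5 in GFP- cells). Mrc1 (mean 7.75 in GFP+ and 7.39 in GFP- cells), C1qa (7.61 and 7.4) and C1qc (6.85 and 6.68) had higher means in GFP+ cells. In bulk RNA, fewer cells of a type and less RNA per cell cannot be told apart.

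The lower markers also included cells of the epithelium. The same shares of all gene probesets apply (9.97% lower and 7.76% higher with vehicle, 7.84% and 3.57% with odorant). Globose basal cell markers (7 of 8 measured lower) summed to 9.32 to 9.74 in GFP+ and 11.07 to 12.32 in GFP- cells with vehicle. Immature neuron markers (7 of 12 lower, 0 higher, median difference -1.54) summed to 17.57 to 17.72 and 17.75 to 17.92. The immature neuron sum leans on its brightest gene, Ncam1 (mean 16.6 in GFP+ and 16.3 in GFP- cells), so it understates the differences of the dimmer markers. Sustentacular markers (8 of 10 lower), ionocyte markers (6 of 6) and tuft-like microvillar markers (6 of 6) were lower as well, the ionocyte sum at 11.22 to 12.09 against 14.54 to 16.07. With odorant 5 of 6 ionocyte and 6 of 6 tuft-like markers were lower, but 4 of 10 sustentacular markers, whose sums overlapped (14.22 to 16.30 in GFP+ and 16.25 to 17.76 in GFP- cells). Of 9 measured lymphocyte markers 6 were lower and 1 higher, and 6 of the 9 were at background on all 16 arrays. All 10 endothelial markers and all 6 horizontal basal cell markers were at background on all 16 arrays, as were 4 of 5 measured markers each of fibroblasts and of ensheathing glia. The part of any of these cells in the differences of the 10 genes was not tested.

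The next question was whether the odorant changed these genes in the GFP+ cells. RNA was taken once, after 14 h of pulses and cell sorting, so a short-lived change may be missed. Sorting was by the reporter and not by odorant receptor, so a change in few neurons may be missed too. None of the 10 genes was called, and 0% of all gene probesets were (limma, 848 of 22206 or 3.82% at an unadjusted p under 0.05, of which 0 were among the 10). Btg2 was at 7.20 ± 0.38 with odorant and 7.49 ± 0.32 with vehicle (SD, n = 4), a difference of -0.29 (95% interval -0.77 to 0.20). Zfp36 differed by -0.36 (95% interval -1.13 to 0.40) and Ier3 by -0.21 (-1.24 to 0.82), the 2 widest intervals. Dusp1 differed by -0.16 (95% interval -0.47 to 0.15) and Klf6 by -0.21 (-0.60 to 0.19). Ier2 (-0.0069) and Ier5 (-0.0009) were nearly equal in the 2 treatments, with intervals that reached 0.38 and 0.39 on the upper side. Dusp6, Klf2 and Klf4 were at or near background in GFP+ cells of both treatments, so their narrow intervals do not bound a change in expression. Ier3 exceeded background on only 2 of 4 GFP+ arrays in each treatment, so its interval rests partly on values under background. The median difference was -0.11, against 0.0054 for all gene probesets, and the limma adjusted p was 0.999 for each gene.

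In GFP- cells the odorant comparison likewise called 0 of the 10 genes and 0% of all gene probesets (limma, 1520 or 6.84% at an unadjusted p under 0.05). Klf4 was the 1 member with an unadjusted p under 0.05. Its log2 signal was 8.02, 7.53, 7.83 and 7.35 with odorant and 7.25, 7.29, 7.16 and 7.27 with vehicle. All 4 odorant arrays lay above all 4 vehicle arrays, as was the case for 2.24% of all gene probesets. The difference was 0.44 (SE 0.17, 95% interval 0.061 to 0.82, limma adjusted p = 0.708), so it did not pass. Ier3 differed by -0.48 (95% interval -1.48 to 0.52), Zfp36 by -0.29 (-1.18 to 0.61), Klf2 by -0.27 (-0.81 to 0.28) and Dusp6 by 0.23 (-0.29 to 0.76). Btg2 (-0.19), Klf6 (-0.20), Dusp1 (-0.18), Ier5 (-0.09) and Ier2 (0.064) had smaller differences. Their limma adjusted p lay between 0.843 and 0.955.

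The interaction subtracts the odorant effect of the GFP- fraction from that of the GFP+ fraction. It was called for 0 of the 10 genes and 0% of all gene probesets (limma, 1093 or 4.92% at an unadjusted p under 0.05, 0 among the 10). Klf4 had -0.40 (SE 0.22, 95% interval -0.86 to 0.050, limma adjusted p = 0.962), and Dusp6 -0.29 (SE 0.28). For Btg2 it was -0.099 (95% interval -0.88 to 0.68), for Zfp36 -0.076 (-1.32 to 1.16) and for Ier3 0.27 (-1.25 to 1.80). For Klf6 (-0.0028) and Dusp1 (0.018) the gap between the fractions was nearly equal in the 2 treatments, with intervals of -0.59 to 0.58 and -0.52 to 0.56.

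Pools of the same group differed among themselves. With vehicle, GFP- replicates 2 and 3 held the highest value of 4 and 5 of the 10 genes, and replicate 4 the lowest of 5. Zfp36 was at 13.50 and 13.68 and Ier3 at 11.38 and 11.15 in those 2 arrays, above replicates 1 and 4. The summed leukocyte markers were at 15.19 and 15.58 in the same 2 arrays and at 13.92 and 13.38 in replicates 1 and 4. Neutrophil markers were at 19.42 and 19.39 there, and at 18.19 and 17.40 in replicates 1 and 4. Other lists ran another way: replicate 4 held the highest sum of 7 of the 15 marker lists, among them sustentacular cells and ionocytes (16.07, against 14.54 in replicate 3). With odorant, GFP- replicate 1 held the highest value of 7 of the 10 genes (Btg2, Ier2, Ier3, Dusp6, Klf2, Klf4 and Klf6). Here too 7 of the 15 lists had their highest sum of that group in the same array: sustentacular cells (17.76 against 16.25 to 16.66), neutrophils (19.17 against 17.39 to 18.18), macrophages (13.50 against 11.77 to 12.07), ionocytes (16.05 against 14.33 to 15.50), fibroblasts (10.29 against 8.22 to 8.68), ensheathing glia and tuft-like cells. The leukocyte sum was highest in replicate 2 (14.60, against 14.56 in replicate 1), as were the globose basal (12.11 against 11.43), immature neuron and mature neuron sums. In GFP+ cells with vehicle, replicate 4 had the highest Ier3 (8.20) and Zfp36 (9.65) and the lowest neutrophil sum (8.65). That array held the highest sum of 8 of the 15 marker lists, including leukocytes (11.20), macrophages (11.19), ionocytes (12.09) and globose basal cells (9.74). Without odorant replicate 1, 6 of the 10 genes were called between the fractions with odorant, the same number as with it.

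**Figure D3:**
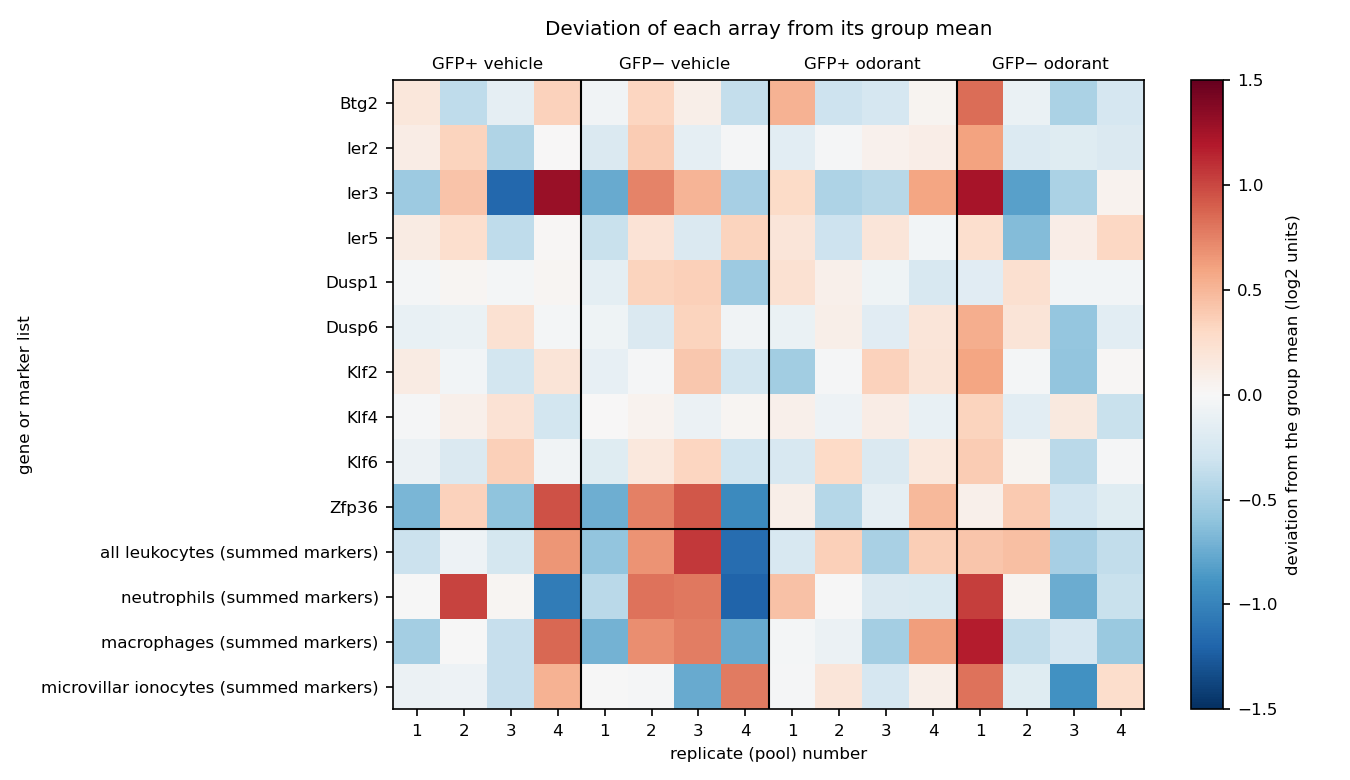
Deviation of each array (columns, by group and replicate number) from its group's mean log2 value, in log2 units, for the 10 genes and for the summed signal of 4 marker lists (rows); red is above the mean and blue below, and the scale ends at 1.5. Zfp36 and Ier3 are red in GFP- vehicle replicates 2 and 3, where the leukocyte and neutrophil sums are red too, and 7 genes peak in GFP- odorant replicate 1.

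Genes whose profile came closest were sought by the root-mean-square difference of log2 values over the 16 arrays, after each gene's own mean was removed. For Btg2 these were Ptprc (0.363), a phosphatase of all white blood cells, and Arpc1b (0.40), an actin-nucleating subunit. Zfp36 came closest to Lilrb4a (0.324) and Ifi30 (0.341), a myeloid receptor and a lysosomal reductase of antigen-presenting cells. For Ier3 they were Fcgr3 (0.36), an antibody receptor, and Cd14 (0.365), a receptor for bacterial lipopolysaccharide. Dusp6 was nearest to Ifngr1 (0.25), an interferon receptor chain, and Ets2 (0.261), a transcription factor downstream of ERK. Klf6 was nearest to Dock5 (0.202) and Mcl1 (0.204), and Klf4 to Moxd1 (0.29) and Casr (0.296). Dusp1 was nearest to Tab2 (0.137), Ier5 to Lyar (0.15), Ier2 to Cpne3 (0.162) and Klf2 to Arpc2 (0.232). The 16 arrays share pools and fall into 2 fractions, so a close profile requires a gap of like size between the fractions. Which cells express the genes was not tested here.

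Other genes of the same 5 families were compared too. Of 30 measured relatives (31 listed), 6 were lower in GFP+ cells with vehicle and 0 higher, against 9.97% lower and 7.76% higher over all gene probesets. With odorant 6 were again lower and 0 higher, against 7.84% and 3.57%. The median difference was -0.12 with vehicle and -0.16 with odorant, against 0.082 and 0.10 over all gene probesets. Of the 30, 11 were at background on all 16 arrays. The difference from the 10 genes was not tested.

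The lower relatives lay in 4 families. Zfp36l2 and Zfp36l1, which also bind AU-rich mRNAs, were at least 15.6-fold and at least 3.02-fold lower with vehicle (limma adjusted p = 4.26e-05 and 0.00216). Btg1 was 2.4-fold lower (difference -1.26, SE 0.15), whereas its relatives Tob1 (-0.12) and Tob2 (-0.43) did not pass. Klf5, an epithelial factor, was at least 2.6-fold lower and at background on all GFP+ arrays. Klf12 (0.56) and Klf7 (0.34), the other KLF genes with the smallest p, were not called. Among MAP kinase phosphatases Dusp4 was at least 1.16-fold lower. Dusp2 (difference -0.84) was called with vehicle though at background in both fractions, and Dusp8 (0.26) did not pass. With odorant Dusp10, named here after its values were seen, was called in place of Dusp2 (2.06-fold lower, limma adjusted p = 0.0102).

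Other early response genes, among them the Egr, Nr4a and AP-1 factors, were also mostly lower in GFP+ cells. Of 51 probesets of 49 measured genes, 34 were lower in GFP+ cells with vehicle and 0 higher (median -1.36). Over all gene probesets 9.97% were lower and 7.76% higher (median 0.082). With odorant 32 of the 51 were lower and 0 higher (median -1.28), against 7.84% and 3.57% over all (median 0.10). Of the 51, 6 were at background on all 16 arrays. Those with the smallest p were Egr2 (58.2-fold lower with vehicle and 74.3-fold with odorant), Plk2, a kinase (at least 7.24-fold and at least 7.3-fold), and Egr1 (29.6-fold and 43.1-fold). None of the 51, and 0% of all gene probesets, was called for the odorant in either fraction (medians of the 51 -0.062 in GFP+ and -0.14 in GFP- cells).

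Targets and upstream kinases gave a mixed picture, to be read against the same shares of all gene probesets (9.97% lower and 7.76% higher with vehicle, 7.84% and 3.57% with odorant). Of 14 mRNAs that ZFP36 is known to bind, 7 were lower in GFP+ cells with vehicle and 7 with odorant (medians -1.64 and -1.12). Il1b, an inflammatory cytokine, was 41.9-fold lower with vehicle, Ptgs2, a prostaglandin synthase that is also on the early response list, at least 5.13-fold and the chemokine Cxcl2 at least 3.12-fold. Zfp36 and these 3 target mRNAs were low in the same fraction. Of 20 measured genes of the ERK pathway and its feedback, 5 were higher and 1 lower in GFP+ cells with vehicle (median 0.17), and 1 was higher and 2 lower with odorant (median 0.075).

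Etv5, a transcription factor that ERK signalling induces, as it does Dusp6, was 2.74-fold higher in GFP+ cells with vehicle (mean log2 signal 13.4 against 11.9, limma adjusted p = 0.000177), opposite to Dusp6. With odorant it was 2.24-fold higher and did not pass (limma adjusted p = 0.0561). Spry1 (difference -1.25), an ERK inhibitor, and Etv4 (1.16) were called with vehicle, but both group means were under background, so no fold is given. Of 14 stress-activated MAP kinase genes 3 were lower with vehicle and 3 with odorant, among them Mapkapk3 (at least 4.51-fold with vehicle), a kinase downstream of p38, and the p38 kinase Mapk13 (at least 1.48-fold). Of 11 genes of the deadenylation machinery 1 was lower in each, near the 9.97% and 7.84% over all gene probesets. It was the poly(A)-binding protein Pabpc1 (1.6-fold with vehicle). That call was lost without vehicle replicates 2 or 3 and without odorant replicates 1, 3 or 4.

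**Figure D4:**
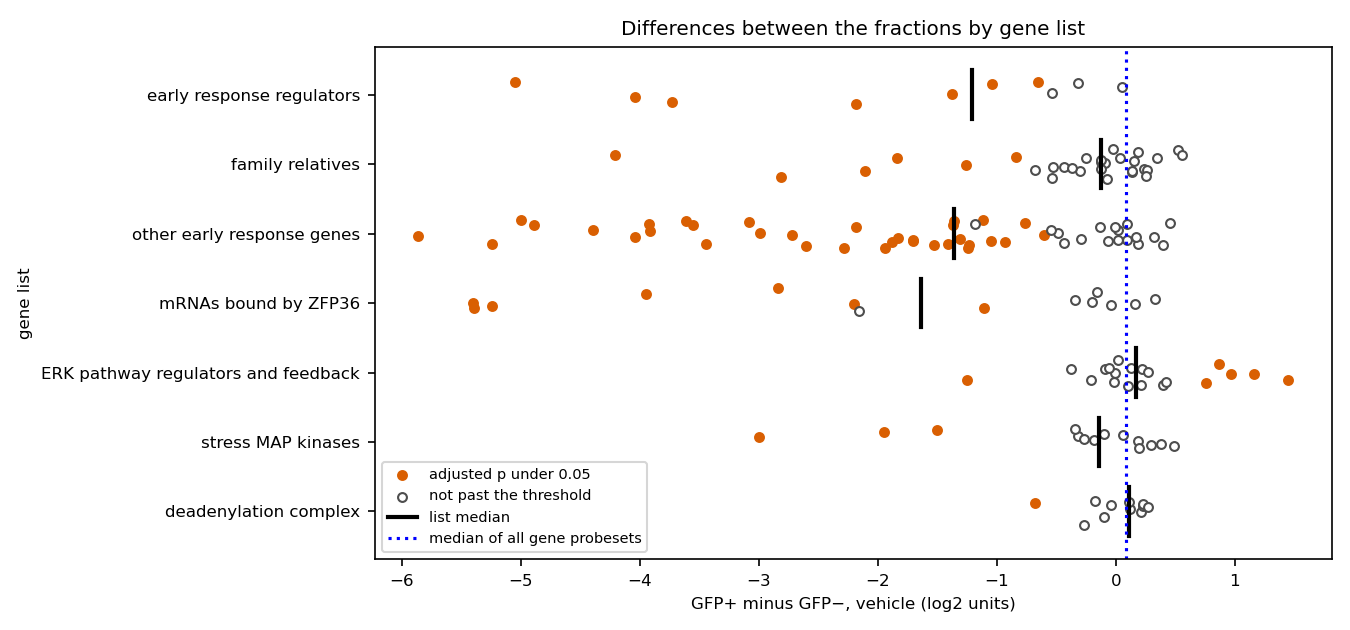
Difference between GFP+ and GFP- cells with vehicle (x axis, log2 units) for each probeset of 7 gene lists (y axis); filled points passed the adjusted threshold of 0.05, black bars are list medians and the dotted blue line is the median of all gene probesets (0.082). Filled points lie to the left for the early response regulators and the other early response genes (medians -1.21 and -1.36), and on the right for 5 ERK pathway genes.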

How the data were processed

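Cells of the olfactory mucosa were sorted from pools of 3 mice, and 50 to 100 ng of their RNA went into each of 16 Clariom S arrays, per the labels' protocols. The authors deposited 1 log2 signal per probeset and array, computed in Affymetrix Expression Console, per the submitters' processing notes. Not given in the sources used here are its version, the steps from probes to probesets, the normalization and the genome build. The deposited log2 values were used without further scaling. Of 28846 probesets 6640 controls were left out. Of the 22206 gene probesets 19572 carried 1 symbol, 0 several and 2634 none; all 19572 matched a RefSeq gene by gene ID, which changed 0 symbols.

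Each of 5 comparisons was fitted with limma 3.58.1 in R 4.3.3 (lmFit and eBayes, two-sided, Benjamini-Hochberg over all 22206), on the arrays of its groups only. Errors are SE of the fit or SD over 4 arrays; their number limits the precision. A fold is a lower bound where a group was at background or its mean was under the mean background level of its arrays; each value under its array's level was then replaced by that level. No fold is given where both groups were so. P-values measure the spread between pools, and those of the main fits do not use the pairing of the fractions. With the replicate number as a block the limma adjusted p between the fractions was 1.9e-05 for Btg2 with vehicle. For Zfp36 with odorant it was 2.5e-05. Alternatives were quantile normalization, subtraction of array medians, a filter on dim probesets (above background on 4 or more arrays of the comparison), all arrays in 1 fit, the replicate number as a block and leaving out each replicate. The fits were tested on simulated data, with arrays drawn independently and so without shared pools. Of shifts of 1 log2 unit they called 56% between the fractions with vehicle and 52% with odorant. For the odorant effect they called 50% in GFP+ and 56% in GFP- cells, and for the interaction 30%. Each simulation held 200 gene probesets with shifts of 1 to 4 log2 units, which makes the adjusted threshold easier to pass. The odorant and interaction comparisons of the data had 0 calls, so there these shares overstate how often a lone change would be called. Plots were drawn with matplotlib 3.10.9.

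Pairing was checked through correlations, across genes, of deviations from the group means. For the fractions of a pool r was 0.113 to 0.156 with vehicle and 0.014 to 0.356 with odorant. Between treatments of the same number r was -0.034 to 0.254 in GFP+ and -0.104 to 0.305 in GFP- cells. These ranges overlap, so the correlations do not settle what the numbers pair. That the fractions are paired rests on the count of mice in the labels. Whether treatments of the same number belong together is not stated there, and they were not treated as paired in the main fits.

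The 10 genes, the lists and the tests were chosen with earlier results of these data known. Besides the 10 genes, the text names up to 3 genes of each list with the smallest p between the fractions with vehicle, and 1 or 2 genes of closest profile per member (named genes only, above background on 4 or more arrays).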

Additional observations from a re-analysis of the deposited data

Results flagged for a closer look

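Ier2 in GFP- cells with odorant had 1 array that stood far from the other 3 of its group. Replicate 1 was at 12.82 log2 units and the other 3 lay at 12.00 to 12.04, so the gap took up 0.959 of the whole range. It was the 1 case among 40 sets of 4 arrays (10 genes in 4 groups) in which an array was that isolated, and chance flags about 5% of such sets. Among the GFP- arrays with odorant the same array had the highest sum of 7 of the 15 marker lists, including neutrophils (19.17), macrophages (13.50), sustentacular cells (17.76), ionocytes (16.05) and fibroblasts (10.29). The leukocyte (14.60 against 14.56) and globose basal (12.11 against 11.43) sums were highest in replicate 2. Their part in the value was not tested. Without that pool the difference of Ier2 between the fractions with odorant was -0.353.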

How the results depend on the processing

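The count of genes called among the 10 stayed within 1.5 times its value under each alternative run, at 6 or 7 with vehicle, 6 with odorant and 0 in the other 3 comparisons. Over single genes, 501 of 555 alternative values kept their direction and their side of the threshold. The 7 lost calls were those of Klf2 given in the report; Ier2 passed with vehicle after quantile normalization (-0.592, adjusted p = 0.049). With the replicate number as a block Klf2 with vehicle lost its call (-0.65, adjusted p = 0.0711) and no other call of the 10 genes changed.

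The other 46 values changed sign, 0 of them past the threshold. With array medians subtracted, Dusp1 had 0.0463 (fractions, vehicle), 0.0164 (fractions, odorant) and -0.0299 (interaction). After quantile normalization the values were -0.0149 for Dusp1 and 0.0338 for Klf6 (interaction), and 0.0132 for Ier2, 0.0209 for Ier5 and -0.0209 for Klf4 (odorant effect in GFP+ cells). Without single replicates, Ier5 ran from -0.0974 to 0.16 between the fractions with vehicle. The odorant effect in GFP+ cells ran from -0.158 to 0.106 for Ier2, -0.604 to 0.22 for Ier3, -0.128 to 0.104 for Ier5, -0.118 to 0.0205 for Dusp6, -0.17 to 0.119 for Klf2 and -0.0608 to 0.108 for Klf4. In GFP- cells it ran from -0.136 to 0.19 for Ier2, -0.199 to 0.128 for Ier5 and -0.606 to 0.0253 for Zfp36. The interaction ran from -0.333 to 0.133 for Btg2, -0.179 to 0.179 for Ier2, -0.291 to 0.869 for Ier3, -0.0238 to 0.238 for Ier5, -0.115 to 0.21 for Dusp1, -0.101 to 0.584 for Klf2, -0.128 to 0.203 for Klf6 and -0.587 to 0.56 for Zfp36.

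Subtracting array medians moved the median of all gene probesets from 0.0818 to 0.445 (vehicle) and from 0.102 to 0.417 (odorant), and the calls from 1723 higher and 2213 lower to 10363 and 1687, and from 793 and 1742 to 7757 and 1520. Quantile normalization gave 2544 and 2034, and 1266 and 1662. Calls over all gene probesets with vehicle numbered 3936, but 2610 without replicate 1 and 2479 without replicate 2; with odorant 2535, but 1661 without dim probesets. Leaving out vehicle replicate 4 brought 3 probesets past the threshold in the odorant comparison of GFP+ cells. With medians subtracted, calls among the relatives with vehicle rose from 6 to 14, those of the ERK list from 6 to 11 (vehicle) and 3 to 9 (odorant), those of the stress kinases from 3 to 9 and 3 to 7, and those of the deadenylation list from 1 to 6 (vehicle). Without dim probesets the ERK list had 1 call with odorant, the stress kinases 1 in each treatment and the ZFP36 targets 4 with vehicle. The Pabpc1 call was lost without vehicle replicates 2 or 3 and without odorant replicates 1, 3 or 4. These list counts were added after the data were seen. The causes were not tested.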
